A study of Cavia porcellus with 18 samples.

Results

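Of 327682 H3K4me1 peaks deposited for guinea pig hippocampus, 177756 (54.2%) carried a score under 40, and these low-scale peaks are described here. They were chosen by that score alone. The other 149926 peaks, with scores of 40 or more, are called high-scale peaks. The score column holds 2 ranges with nothing between them: 1.27 to 14.8 in low-scale peaks and 42 to 3164 in high-scale peaks. Every high-scale score was a whole number or ended in 0.5, while 0.00281% of low-scale scores did. The sources used here do not give the relation between the ranges, so a low-scale score cannot be read as a weaker version of a high-scale one.

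Hippocampi came from 3 wild type male guinea pigs (Cavia porcellus) aged 12 weeks. The animals gave 3 libraries each of H3K4me1 ChIP-seq, of bisulfite-treated H3K4me1 ChIP DNA (ChIP-bisulfite) and of ChIP-seq for RNA polymerase II phosphorylated on serine 5 (Pol II PS5). Reduced representation bisulfite sequencing (RRBS), which reads methylation near MspI and ApeKI restriction sites whatever the chromatin, gave 6 libraries, and 3 digestion controls without bisulfite were not analysed here. All values pooled the animals and whole hippocampus mixes its cell types, so no spread between animals could be computed.

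H3K4me1, monomethylation of lysine 4 of histone H3, is found on enhancers, active or poised, and on the flanks of active promoters. Pol II PS5 is the form of the polymerase found at initiation, most of it just downstream of active start sites and some of it at active enhancers. Methylated CG sites are the usual state of vertebrate DNA outside CpG islands, and methylation is commonly reduced at active enhancers and promoters.

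The 3 low-scale peaks nearest to the threshold had scores of 14.8 (scaffold_10:20266601-20267264), 10.9 (scaffold_82:7566823-7567151) and 10.2 (scaffold_1:68170294-68170883). Nearest to it on the other side were 1490 high-scale peaks tied at a score of 42, of which the first 3 by position are named (scaffold_0:935585-937250, scaffold_0:2025103-2030671 and scaffold_0:2384160-2386462). Positions are printed as the files give them. Which genome build they refer to is not given in the sources used here, nor is whether the first base counts as 0 or 1. Low-scale scores were narrowly spread, with a median of 1.66 and quartiles of 1.55 and 1.81. Only 480 low-scale peaks exceeded 3 and 32 exceeded 5, against a median of 57.5 in high-scale peaks.

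Low-scale peaks were short. Their median width was 914 bases (quartiles 482 and 1591, range 206 to 21339), against 3330 bases (quartiles 2212 and 4905, range 589 to 220169) for high-scale peaks. Under 500 bases lay 46493 low-scale peaks (26.2%) and 0 high-scale peaks. A width of exactly 294 bases was shared by 9697 low-scale peaks (5.46%), and exactly 1000 bases by 87 low-scale and 4301 high-scale peaks. Low-scale peaks covered 222.0 Mb, and high-scale peaks 648.1 Mb. Within each range wider peaks had somewhat higher scores, with a Spearman correlation across peaks of 0.273 in low-scale and 0.271 in high-scale peaks. Widths and scores come from the same peak call, so these values describe the peaks and are not tested.

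Comparisons at like width use peaks of 500 to 2000 bases, which hold 100730 low-scale peaks (56.7%) and 30029 high-scale peaks (20.03%). The match is loose. The median width was 1008 bases in low-scale and 1521 bases in high-scale peaks, and under 1000 bases there were 49675 low-scale peaks but 18 high-scale ones. Differences below are low-scale minus high-scale, from least squares over peaks, with 95% intervals that take peaks of 1 scaffold as dependent. The spread behind these intervals is between scaffolds and not between animals.

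Low-scale peaks lay apart from high-scale peaks. At all widths, the gap from a low-scale peak to the next high-scale peak had a median of 6295 bases (quartiles 2498 and 17719), against 2029 bases (quartiles 871 and 4862) from a high-scale peak to the next other high-scale peak. Within 1000 bases of a high-scale peak were 6.62% of low-scale and 28.8% of high-scale peaks, and within 5000 bases 42.3% and 75.3%. At 500 to 2000 bases the median gap was 6352 bases (quartiles 2516 and 17740) for low-scale and 1756 bases (quartiles 833 and 5543) for high-scale peaks, and 6.52% and 31.0% lay within 1000 bases. At all widths, 6814 low-scale peaks lay on scaffolds with no high-scale peak, of which there were 1110. No peak of the list overlapped another.

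**Figure D1:**
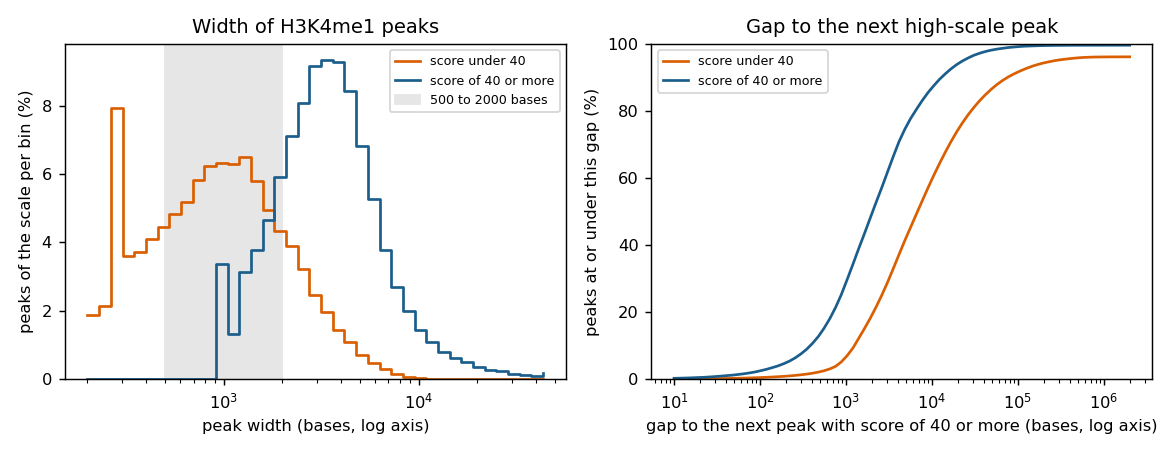
The left panel gives the width of H3K4me1 peaks in bases on a log axis as a percentage of each score range, with 500 to 2000 bases shaded and widths beyond the axis put into the last bin. The right panel gives the percentage of peaks at or under each gap to the next high-scale peak, in bases on a log axis. Low-scale peaks centre on 914 bases and high-scale peaks on 3330 bases, and the low-scale curve for the gap stays below the high-scale one, ending under 100% because 6814 low-scale peaks had no high-scale peak on their scaffold.

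Low-scale peaks neighboured each other more often than they neighboured high-scale peaks. The next peak along the scaffold was a low-scale one for 67.5% of low-scale and 38.3% of high-scale peaks, where 54.2% of all peaks are low-scale. The 67.5% includes pairs on the 1110 scaffolds with no high-scale peak, where no other neighbour is possible. Low-scale peaks formed 58923 unbroken runs, of which 23780 (40.4%) were single peaks, while 86700 low-scale peaks (48.8%) lay in runs of at least 5. The longest run had 153 peaks, at scaffold_211:144643-871426, on a scaffold of 872984 bases. Of these peaks 33 (21.6%) overlapped a Pol II PS5 peak. On scaffolds under 1 Mb 24.0% of low-scale peaks of 500 to 2000 bases did. No peak of the run lay within 1000 bases of a listed start site. Start sites are listed only through measured CG sites, and the run held 0 such CG sites. The lack of a listed start site therefore cannot show that the run lies far from genes. The 5 low-scale peaks farthest from any high-scale peak all lay on scaffold_26. The farthest, scaffold_26:6156632-6157333, was 1994711 bases from one, and of the 5 only scaffold_26:6306480-6307614 overlapped a Pol II PS5 peak, with a score of 3.63.

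On the 101 scaffolds of 5 Mb or more, low-scale peaks made up between 33.5% and 80.7% of all peaks, with a median of 52.5%. That share followed the density of the high-scale peaks. Over these scaffolds the number of low-scale peaks per Mb ran from 21.4 to 81.1 and had a Spearman correlation of 0.053 with the share, against -0.963 for high-scale peaks per Mb, which ran from 7.42 to 98.6. RRBS positions per Mb had a correlation of -0.843 with it. The share is computed from both densities, so these are descriptions.

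The name "weak" was set against the ChIP-bisulfite libraries, which used the same antibody in other libraries than the score. Among peaks of 500 to 2000 bases with an RRBS position, 5.26% of low-scale peaks (2840 of 53963, exact Clopper-Pearson 95% interval 5.08% to 5.45%) held a CG site that ChIP-bisulfite had also measured. Of such high-scale peaks 11.7% did (2572 of 22026, 11.3% to 12.1%). The share of low-scale peaks was lower at each number of RRBS positions compared: 1.58% against 4.07% with 1 position, 3.81% against 6.44% with 2 to 3, 6.68% against 11.4% with 4 to 6, and 10.2% against 17.3% with 7 to 12. Counting intervals cover counting error only.

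A second measure of recovery, from the authors' deposited averages per peak, depended on which entries were used. An entry overlapped 14.5% of low-scale and 27.3% of high-scale peaks of 500 to 2000 bases with an RRBS position. All 14268 entries of the authors' deposited table of averages that overlapped a low-scale peak had exactly its start and end (100%), whereas 13944 of the 85710 entries over high-scale peaks (16.3%) did. Among entries of 500 to 2000 bases with the boundaries of their listed peak (7569 low-scale and 1305 high-scale peaks), ChIP-bisulfite measured a median of 10% of the C positions in low-scale and 10.2% in high-scale peaks, with 14.0 and 14.7 reads per position. RRBS had 19.7 reads per position in low-scale and 20 in high-scale peaks. With all 14198 entries of this width over high-scale peaks, the median share of C positions that ChIP-bisulfite measured was 16.7%. The median number of such positions was 2 in low-scale peaks. In high-scale peaks it was 3 with the listed boundaries and 5 over all entries. Low-scale peaks thus held a doubly measured site or an entry less often. The measured share was near that of high-scale peaks only among entries with the boundaries of their listed peak.

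The next comparison asked how often low-scale peaks coincide with initiating polymerase. Of all 327682 peaks, 9.77% overlapped a Pol II PS5 peak by at least 1 base, and of those of 500 to 2000 bases 5.77%. At all widths the shares were 7.73% of low-scale peaks (13737) and 12.2% of high-scale peaks (18283). At 500 to 2000 bases the order turned, with 6.04% of low-scale and 4.88% of high-scale peaks, a difference of 1.16 points (95% interval 0.666 to 1.66). On scaffolds of 5 Mb or more it turned back, with 3.92% of low-scale and 4.32% of high-scale peaks, a difference of -0.399 points (-0.684 to -0.115). With peaks of like width compared in 100-base bins on these scaffolds, the difference was 0.0109 points (-0.289 to 0.311). No direction for the overlap of low-scale peaks as a whole is therefore given.

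Scaffold length moved with the overlap of low-scale peaks more than the score range did. On scaffolds under 1 Mb 24.0% of low-scale (2222 of 9248) and 22.6% of high-scale peaks (155 of 687) overlapped a Pol II PS5 peak. On scaffolds of 1 to 5 Mb the shares were 6.78% and 5.89%, on 5 to 20 Mb 4.58% and 4.15%, and over 20 Mb 3.69% and 4.38%. RRBS depth over the low-scale peaks differed too, with a median of 20 reads per position and a 90th percentile of 51.0 on scaffolds under 1 Mb, against 17.9 and 34.5 over 20 Mb. The part of read depth in the overlap was not tested. Of all 67423 Pol II PS5 peaks, 18198 (27.0%) lay in low-scale peaks, 22767 (33.8%) in high-scale peaks and 26446 in neither. Of the Pol II PS5 peaks on scaffolds of 5 Mb or more, 15.6% (6414) lay in low-scale peaks.

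**Figure D2:**
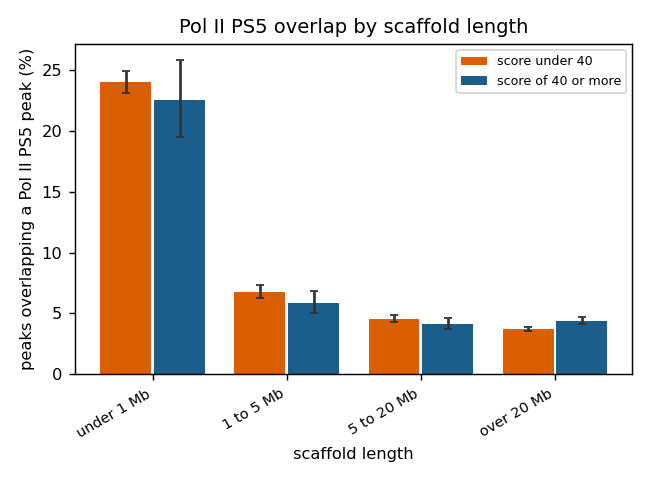
Bars give the percentage of H3K4me1 peaks of 500 to 2000 bases that overlap a Pol II PS5 peak, by scaffold length, for low-scale peaks (left bar) and high-scale peaks (right bar), with exact 95% binomial intervals for counting error. Both ranges reach 24.0% and 22.6% on scaffolds under 1 Mb and are under 5% on scaffolds of 5 Mb or more.

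Near start sites low-scale peaks and high-scale peaks parted. Among peaks that contained a listed start site, 5.53% of low-scale (22 of 398) and 15.6% of high-scale peaks (62 of 397) overlapped a Pol II PS5 peak, a difference of -10.1 points (-14.7 to -5.45). At 1 to 1000 bases from a start site the shares were 3.53% (26 of 736) and 29.7% (240 of 808), a difference of -26.2 points (-29.7 to -22.7). The rise near start sites seen in high-scale peaks was not seen in the low-scale values, which stayed between 3.33% and 5.53% up to 100000 bases. At 1001 to 5000 bases the shares were 3.33% of low-scale and 6.71% of high-scale peaks, at 5001 to 20000 bases 3.80% and 4.97%, and at 20001 to 100000 bases 4.30% and 3.55%. Beyond 100000 bases, or on scaffolds without a listed start site, low-scale peaks overlapped more often, 7.94% against 3.43%, and on scaffolds of 5 Mb or more 4.03% against 2.05% (difference 1.98 points, 1.66 to 2.30).

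**Figure D3:**
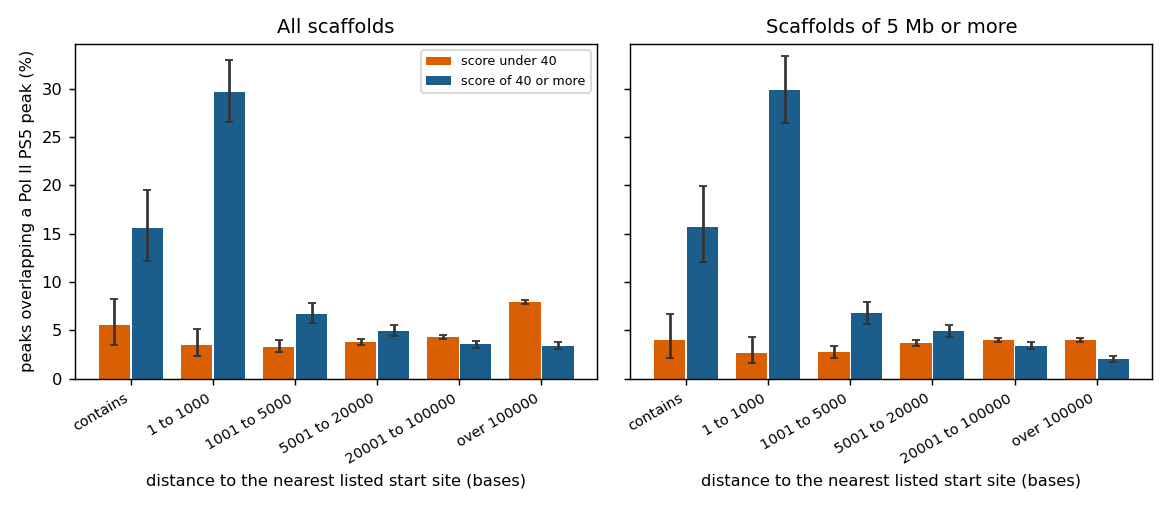
Bars give the percentage of H3K4me1 peaks of 500 to 2000 bases that overlap a Pol II PS5 peak, by distance in bases to the nearest listed start site, for low-scale peaks (left bar) and high-scale peaks (right bar), on all scaffolds and on those of 5 Mb or more, with exact 95% binomial intervals for counting error. High-scale peaks reach 29.7% at 1 to 1000 bases, where low-scale peaks stand at 3.53%.

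The low-scale peaks with the highest scores often held a Pol II PS5 peak. The 32 low-scale peaks with a score over 5 included 22 (68.8%) that overlapped a Pol II PS5 peak, against 7.73% of all low-scale peaks. The 19 of the 32 with RRBS positions had a median of 38.4 reads per position. In low-scale peaks of 500 to 2000 bases this median was 20 on scaffolds under 1 Mb and 17.9 over 20 Mb. The low-scale peak scaffold_1:68170294-68170883, score 10.2, held the Pol II PS5 peak with the highest score of those in low-scale peaks of 500 to 2000 bases, 1149, although the nearest listed start site was 390782 bases away. Next came scaffold_17:1139062-1139690 with a Pol II PS5 score of 265.0, scaffold_78:8123348-8124009 with 113.7, scaffold_780:133-996 with 98.5 and scaffold_12:9495293-9495883 with 88.2. These 5 were picked by Pol II PS5 score and not by H3K4me1 score. Their H3K4me1 scores were 10.2, 9.31, 7.28, 2.12 and 1.43, the last of which is under the low-scale median of 1.66. None of these 5 contained a CG site of the site table. Both lists' scores are the authors' and rank peaks within a list only.

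In both ranges, at 500 to 2000 bases, the highest of 5 score classes stood apart for Pol II PS5. In low-scale peaks the overlap was 5.06%, 5.15%, 5.03%, 5.43% and 9.54% from the lowest to the highest class. On scaffolds of 5 Mb or more it was 3.81%, 3.66%, 3.60%, 3.34% and 5.20%. In high-scale peaks it was 2.37%, 3.07%, 4.11%, 4.49% and 10.7%, and 9.68% in the highest class on these long scaffolds. Overlap was higher far from high-scale peaks, with 4.25% of low-scale peaks up to 1000 bases away, 3.64% at 1001 to 5000, 4.90% at 5001 to 20000, 7.69% at 20001 to 100000 and 14.2% beyond. On scaffolds of 5 Mb or more the last share was 9.59%.

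The distance to genes was taken to the 19847 start sites that the table of CG sites lists, so a gene without a measured site is not seen. Of these CG sites 159729 lay in high-scale and 7658 in low-scale peaks. The listing thus rests mostly on high-scale peaks, which can place them nearer to listed start sites. Its part in the differences below was not tested. Of all peaks of 500 to 2000 bases 1.79% lay within 1000 bases of one. The share was 1.13% in low-scale and 4.01% in high-scale peaks, a difference of -2.89 points (-3.16 to -2.61). With the distances of the averages table, for entries with the peak's own boundaries, the shares were 1.47% of 7569 low-scale and 1.99% of 1305 high-scale peaks, and the interval of the difference included 0 (-1.27 to 0.221). A listed start site lay inside 0.395% of low-scale and 1.32% of high-scale peaks, and within 50000 bases of 34.2% and 49.9%. The median distance was 84387 bases in low-scale and 48984 bases in high-scale peaks on scaffolds with a listed start site. A total of 18844 low-scale peaks of any width lay on scaffolds without one.

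Of the 398 low-scale peaks of 500 to 2000 bases that contained a listed start site, 108 (27.1%) belonged to a transcript with a Pol II PS5 score above 0 in the authors' table. The share was 34.8% for the 397 high-scale peaks that contained one (138) and 37.2% over all listed start sites (7375). The difference between these shares was not tested. The highest were ENSCPOG00000022447, with a transcript score of 16.4 in the low-scale peak scaffold_390:13843-15254, and ENSCPOG00000023147, with 13.7 in scaffold_206:373420-374144. The second of these peaks overlapped a Pol II PS5 peak with a score of 9.34, and the first overlapped none. The files do not pair these identifiers with gene names, and whether a position is exonic or intronic was not annotated.

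Methylation was read at CG sites measured in both bisulfite assays, averaged within a peak first. Such a site lay in 4.14% of all peaks of 500 to 2000 bases, in 2.82% of low-scale and 8.57% of high-scale peaks (difference -5.75 points, -6.18 to -5.31). The levels below therefore describe a small part of the low-scale peaks, the part that ChIP-bisulfite recovered. RRBS itself covered less of them, with 2.005 positions per 1000 bases in low-scale and 2.86 in high-scale peaks, and at least 1 position in 53.6% and 73.3%.

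CG sites in low-scale peaks were highly methylated. The RRBS level was 76.0% ± 26.2 in 2840 low-scale peaks and 60.3% ± 33.2 in 2572 high-scale peaks (SD over peaks), a difference of 15.7 points (14.1 to 17.3). RRBS is a separate assay from the ChIP score, and the sites rested on a median of 18 reads in both ranges. The peaks compared are still those where ChIP-bisulfite, with the same antibody as the score, measured a site. A level of 20% or less was found in 5.32% of low-scale peaks (151) and 16.9% of high-scale peaks (434), and a level of 80% or more in 57.6% and 37.6%. The difference depended on which high-scale peaks were used. Against high-scale peaks under the median high-scale score of this window, 53.5, it was 6.65 points, with 69.4% in the high-scale peaks. With the authors' RRBS averages for entries with the peak's own boundaries it was 9.02 points (7.76 to 10.3), with 74.1% in low-scale and 65.1% in high-scale peaks. On scaffolds under 1 Mb it was 10.3 points with an interval that includes 0 (-2.55 to 23.2), from 53 low-scale and 62 high-scale peaks. With at least 3 sites per peak it was 24.6 points, with 76.2% in low-scale and 51.6% in high-scale peaks.

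**Figure D4:**
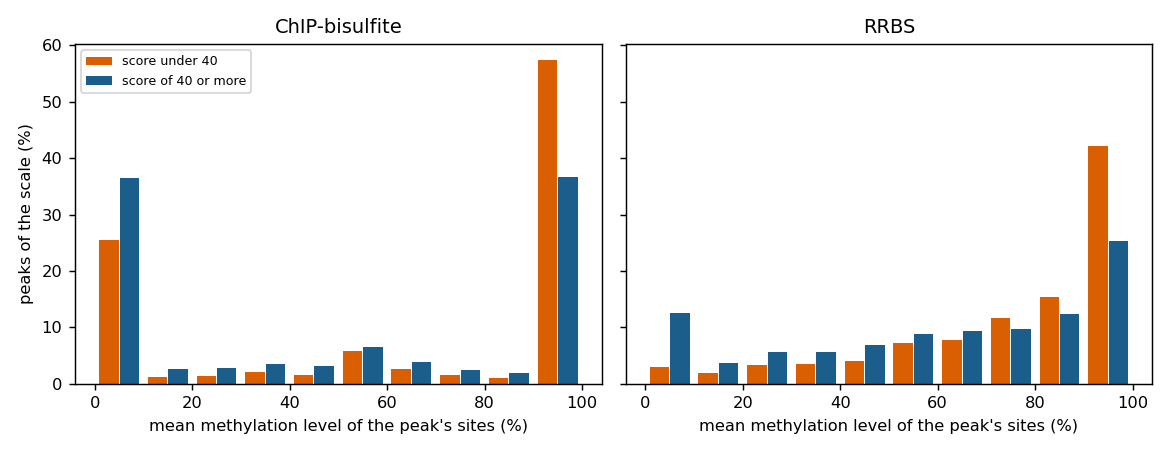
Bars give the percentage of H3K4me1 peaks of 500 to 2000 bases by the mean methylation level of their CG sites, in steps of 10 percentage points, for low-scale peaks (left bar) and high-scale peaks (right bar), in ChIP-bisulfite and in RRBS. In RRBS 42.3% of low-scale and 25.3% of high-scale peaks are at 90% or more, and under 10% are 3.06% and 12.6%.

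The level of high-scale peaks differed by score class. In 5 classes of the high-scale score from lowest to highest, the RRBS level was 73.1%, 67.6%, 62.7%, 63.4% and 47.0%. The 76.0% of low-scale peaks lay nearest to the value of the first of these classes, although the ranges of the score are not 1 scale. Within the low-scale peaks the level was 77.0%, 76.4%, 78.9%, 76.2% and 72.3% from the lowest to the highest score class. By distance from high-scale peaks the level of low-scale peaks was 80.2% in 307 peaks up to 1000 bases away, 77.5% in 1494 at 1001 to 5000, 74.1% in 819 at 5001 to 20000, 67.6% in 195 at 20001 to 100000 and 63.5% in 23 beyond.

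On DNA precipitated with H3K4me1 low-scale peaks were also the more methylated. In ChIP-bisulfite the level was 65.8% ± 42.9 in low-scale and 49.6% ± 43.4 in high-scale peaks (SD over the same peaks), a difference of 16.2 points (13.6 to 18.9). Mean levels were lower in ChIP-bisulfite than in RRBS, while the median of low-scale peaks was 100% in ChIP-bisulfite and 84.7% in RRBS, and that of high-scale peaks 50% and 67%. At 90% or more in ChIP-bisulfite were 57.4% of low-scale and 36.6% of high-scale peaks. ChIP-bisulfite minus RRBS was -10.2 points in low-scale and -10.7 points in high-scale peaks. These gaps differed by 0.531 points, with an interval of -1.86 to 2.92 that includes 0. Most low-scale peaks had a single site (74.8%, against 60.5% of high-scale peaks), and 83.9% of sites in low-scale and 76.6% in high-scale peaks were at exactly 0% or 100% in ChIP-bisulfite. The number of ChIP-bisulfite reads per site was not given.

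Distance to start sites changed the level in high-scale peaks more than in low-scale peaks. In peaks containing a start site RRBS gave 70.2% in 69 low-scale and 46.3% in 118 high-scale peaks, and at 1 to 1000 bases 71.1% in 103 and 42.9% in 213. Beyond 100000 bases the levels were 77.5% in 337 low-scale and 66.1% in 254 high-scale peaks. The difference between the ranges was 8.62 points larger within 5000 bases of a start site than farther away (interaction, 4.92 to 12.3). Pol II PS5 gave the same order. Peaks with a Pol II PS5 peak had 73.9% in 81 low-scale and 39.3% in 207 high-scale peaks, and peaks without one 76.1% and 62.1%, so the difference was 20.7 points larger with a Pol II PS5 peak (interaction, 12.8 to 28.5).

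Low-scale peaks also kept their level where C positions were dense. The authors' deposited averages were used here for entries of 500 to 2000 bases with the boundaries of their listed peak and at least 3 positions in each assay, 2385 low-scale and 760 high-scale peaks, with the ChIP-bisulfite lines put back in register. This restriction was chosen after seeing the data. Across 5 classes from few to many C positions per 1000 bases, the RRBS average of low-scale peaks was 72.7%, 74.4%, 75.8%, 74.7% and 74.0%. In high-scale peaks it was 65.0%, 65.9%, 64.8%, 65.3% and 57.7%. The difference was 7.73 points in the lowest class (4.23 to 11.2) and 16.3 points in the highest (10.3 to 22.4). In ChIP-bisulfite the averages of low-scale peaks were 64.5%, 62.4%, 64.6%, 60.9% and 61.6%, and those of high-scale peaks 49.99%, 52.7%, 52.2%, 49.2% and 36.3%. When all entries of that width over high-scale peaks were used, 10200 that mostly have other boundaries than the listed peak, their RRBS average was 64.3%, 61.9%, 59.7%, 57.5% and 46.4%, and the difference in the highest class was 27.7 points (24.8 to 30.5). Low-scale peaks with an entry of their own boundaries had a median of 18.7 C positions per 1000 bases, against 19.6 in such high-scale peaks.

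**Figure D5:**
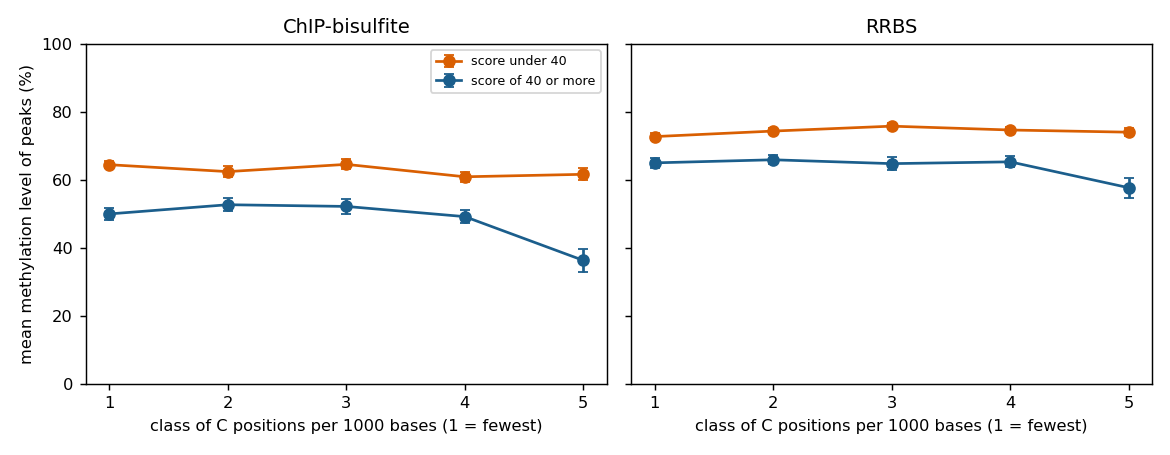
Points give the mean methylation level over H3K4me1 peaks of 500 to 2000 bases from the authors' averages, for entries with the boundaries of the listed peak, by class of C positions per 1000 bases (5 classes), for low-scale and high-scale peaks in ChIP-bisulfite and RRBS, with standard errors over scaffolds. High-scale peaks are lowest in the densest class, at 57.7% in RRBS, where low-scale peaks are at 74.0%.

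Single CG sites in low-scale peaks showed where the assays parted. The authors' deposited list of differing sites matched, for all 167387 sites, a limit of at most 30% in ChIP-bisulfite and at least 70% in RRBS for sites listed as lower, and the opposite for sites listed as higher. Over all sites 10.2% were listed as lower and 2.93% as higher. In peaks of 500 to 2000 bases, 582 of 3851 sites in low-scale peaks were listed as lower (15.1%, exact 95% interval 14.0% to 16.3%), and 547 of 4424 in high-scale peaks (12.4%, 11.4% to 13.4%). More sites in low-scale peaks were high enough in RRBS to be listed, 2633 in low-scale and 2018 in high-scale peaks. Of sites at 70% or more in RRBS, 22.1% in low-scale and 27.1% in high-scale peaks were listed as lower. Listed as higher were 106 sites in low-scale (2.75%) and 125 in high-scale peaks (2.83%). Of sites at 30% or less in RRBS, 29.2% of 363 in low-scale and 9.83% of 1272 in high-scale peaks were listed as higher. These conditional shares are not at like RRBS level. Of all sites in these peaks, 2.78% in low-scale and 16.0% in high-scale peaks were at exactly 0% in RRBS. At exactly 100% were 31.6% and 19.0%. Upstream of their start site lay 16.0% of the sites in low-scale and 31.4% in high-scale peaks, and more than 10000 bases downstream 62.2% and 48.1%.

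Only 52 low-scale peaks of 500 to 2000 bases held at least 4 CG sites, and they show the range of single loci. The least methylated in RRBS was scaffold_6:3153088-3154112, where 6 sites stood at 33%, 62%, 19%, 0%, 43% and 21% in RRBS and at 100%, 100%, 0%, 0%, 0% and 100% in ChIP-bisulfite. It lay 1077 bases from a listed start site. The next lowest, scaffold_1:72790230-72791173, had 8%, 25%, 33% and 71% in RRBS and 0%, 64%, 0% and 36% in ChIP-bisulfite. At the other end, 4 sites of scaffold_47:1557510-1559502 were all at 100% in both assays. So were the 4 sites of scaffold_165:1224950-1226226 in RRBS, with 80%, 100%, 79% and 77% in ChIP-bisulfite. A further peak at 100% in RRBS, scaffold_0:17502420-17503197, had 0%, 100%, 0% and 100% in ChIP-bisulfite. In the order named, these peaks rested on medians of 14, 18.5, 18, 17 and 16 RRBS reads per site.

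Among these 52 peaks the mean difference between the assays was most negative and most positive at a pair of peaks whose 4 sites lie close together. In scaffold_27:9822713-9824083 RRBS gave 69%, 81%, 93% and 100% and ChIP-bisulfite 0% at all 4 sites, which lie within 7 bases. In scaffold_28:26818971-26819894 RRBS gave 30%, 30%, 100% and 10% and ChIP-bisulfite 100% at all 4, within 28 bases. Sites this close can lie on the same reads, so they are not independent measurements. RRBS rested on a median of 15 reads per site in the scaffold_27 peak and 10 in the scaffold_28 peak. The RRBS counts hold only positions with at least 10 reads. Of all 5468 low-scale peaks with a CG site, the one with the highest median of RRBS reads per site was also the one with the highest score, scaffold_10:20266601-20267264. Its 22 sites rested on a median of 733.5 RRBS reads and averaged 51.5% ± 29.4 in RRBS and 54.1% ± 31.9 in ChIP-bisulfite (SD over sites), and it held a Pol II PS5 peak with a score of 82.8.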

How the data were processed

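ChIP-seq libraries have Bowtie2 2.2.3, MACS2, HOMER 4.6 and SAMtools 1.1 in the submitters' processing notes, ChIP-bisulfite libraries Bismark 0.12.5 with methylKit, and RRBS libraries BSMAP 2.74 with methylKit. The tools' roles and the genome build are not given in the sources used here. The authors deposited peak scores of unstated scale, methylation levels in percent per CG site and per peak, RRBS counts of reads per C position (5053261 positions with at least 10 reads, 131062338 reads in all), and, in the averages table, whole ChIP-bisulfite read counts and RRBS reads treated as estimated counts because a few are not exactly whole.

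Overlaps used at least 1 base, and distances ran from peak edges. A CG site listed with several transcripts was counted once, 167387 sites in all. Scaffold length is the span the files cover. In the averages table the ChIP-bisulfite columns were displaced on 125619 of 198160 lines (63.4%). They were moved back to fit the ChIP-bisulfite levels of the CG sites inside each entry, by offsets of -6 to 6 lines (penalty 150 per change of offset). Of 98182 entries listed under both the label Active and the label Inactive, 97808 (99.6%) then had identical ChIP-bisulfite values. Both copies were fitted to the same CG site levels, so this is not a separate check of the offsets. The meaning of the labels is not given in the sources used here.

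Differences come from least squares with scaffold-clustered errors (CR1) in Python 3.11.15 with numpy 2.4.6, pandas 2.3.3 and scipy 1.17.1, tested on simulated data. No p-value is given, since regions are not replicates and the animals were pooled. Alternatives changed widths, width bins, score groups, distances, read and site minimums and scaffold sets. Named regions follow fixed rules: score extremes, and the extremes of methylation, assay gap, Pol II score, isolation and start-site score among low-scale peaks. Peaks, lists and comparisons were chosen with earlier results of these data known.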

Additional observations from a re-analysis of the deposited data

Results flagged for a closer look

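The differences between low-scale and high-scale peaks of 500 to 2000 bases varied with where the peaks lay, by 7 interaction terms with scaffold-clustered errors. Within 5000 bases of a listed start site, Pol II PS5 overlap was 3.57% in low-scale and 13.1% in high-scale peaks, and farther away 6.15% and 3.80%, so the differences of -9.49 and 2.34 points gave a term of -11.8 (95% interval -13.1 to -10.6). On scaffolds of 5 Mb or more the same term was -11.0 (-12.3 to -9.63), from differences of -10.2 points near start sites and 0.770 points farther away.

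Scaffold length gave a term of -6.40 for Pol II PS5 overlap (-7.64 to -5.15). On scaffolds of 5 Mb or more 3.92% of low-scale and 4.32% of high-scale peaks overlapped, and on shorter scaffolds 15.2% and 9.22%.

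For methylation, the RRBS average differed by 27.7 points in the class of peaks with the most C positions per 1000 bases (the highest of 5) and by 13.6 points in the other classes, a term of 14.1 (11.1 to 17.1), in which most high-scale entries of the averages table have other boundaries than the listed peak. With entries of the peak's own boundaries only, the differences were 16.3 and 9.05 points and the term 7.30 (0.961 to 13.6). With a Pol II PS5 peak the RRBS level differed by 34.6 points and without one by 13.9 points, a term of 20.7 (12.8 to 28.5) that rests on 81 low-scale peaks. Within 5000 bases of a listed start site the RRBS level differed by 21.2 points (72.1% in low-scale and 50.9% in high-scale peaks) and farther away by 12.6 points (77.0% and 64.4%), a term of 8.62 (4.92 to 12.3).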

How the results depend on the processing

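The difference in Pol II PS5 overlap, 1.16 points, was not stable. It turned to -4.47 with all widths and to -0.399 on scaffolds of 5 Mb or more. It was highest, at 3.21 points, against high-scale peaks under their median score. Its interval took in 0 with low-scale peaks under their median score (0.229), with Pol II PS5 peaks at or above the median score (0.242), and with long scaffolds and width bins together (0.0109), while 7 of 12 alternatives kept it above 0. The long-scaffold settings, and those with the authors' ChIP-bisulfite averages, with classes of C density or with entries of the peak's own boundaries, were chosen after seeing the data. The gap between assays, whose interval held 0, turned to -1.29 with low-scale peaks more than 5000 bases from a high-scale peak and to -1.17 with low-scale peaks at or above their median score. Start sites within 1000 bases kept an interval without 0 in 11 of 12 alternatives, the exception being the averages table's distances for entries with the peak's own boundaries (-0.526). Listed start sites come from CG sites that lay mostly in high-scale peaks, and alternatives that use them share that limit. Presence of a CG site (8 alternatives, -23.5 to -2.72 points), RRBS level (16, 6.65 to 24.6) and ChIP-bisulfite level (15, 7.46 to 24.6) kept theirs in every alternative run. The authors' ChIP-bisulfite averages were put back in register by the levels of the same CG sites. Alternatives with these averages are therefore not separate from the main result. Within scaffolds under 1 Mb alone, the RRBS interval held 0. The causes were not tested. RRBS depth, a median of 18 reads per site, and the single site in most low-scale peaks limit the level of any 1 peak. No paired analysis was possible because the tables hold 1 value for all animals together, and no library could be left out.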
